A study of Mus musculus with 6 samples.

Results

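The genes described here are 37 genes of DNA replication and nucleotide supply, followed in RNA from regulatory T cells (Treg, T cells that carry the factor Foxp3 and hold other immune cells in check). They were taken as a list of gene symbols, and all 37 were found among the 37991 genes of the deposited count table. By the step they serve, 14 belong to licensing of origins and the replicative helicase, 14 to the polymerases and the fork, 5 to the supply of deoxynucleotides, 2 to chromatin assembly behind the fork, and 2 encode cyclin E. Treg were sorted as YFP-positive cells after magnetic isolation of CD4 T cells from mouse spleen. The 6 libraries fall into 2 groups of 3 by their labels, wild type cells that are KAP1 sufficient and KAP1 deficient cells. KAP1, encoded by Trim28, is a co-repressor that zinc finger proteins recruit to DNA. The strain background is given as C57BL/6 for the 3 sufficient libraries and for deficient replicate 1, as C57BL/7 for deficient replicate 2 and as C57BL/8 for deficient replicate 3. The driver of the YFP or of the deletion, the age of the mice and whether each library came from its own animal were not given in the labels. The p-values therefore speak only for the spread among these 6 samples, part or all of which may be technical.

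Before a cell enters S phase, Cdc6 and Cdt1 load the ring of Mcm2 to Mcm7 onto origins, which is called licensing. Cdc45 and the GINS complex then turn that ring into an active helicase, primase and the polymerases copy the strands, and the sliding clamp Pcna, loaded by the Rfc complex, holds the polymerases on DNA. Ribonucleotide reductase, made of Rrm1 and Rrm2, supplies the deoxynucleotides. Many of these genes are targets of E2F transcription factors and are transcribed mostly in dividing cells, and a fraction of Treg divides in healthy animals.

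Library totals were 9954344 to 10994745 counts, and 3 counts, the upper limit for a count of 0, equalled 0.273 to 0.301 CPM (counts scaled to the library total). Such limits cover counting error only. The check of the targeted gene split the labelled groups: the Trim28 count was 2462 and 2483 in sufficient replicates 1 and 2 but 218 in the library labelled sufficient 3, and it was 232 and 185 in deficient replicates 1 and 2 but 2544 in the library labelled deficient 3. Each result is therefore given with all 6 libraries as labelled and with the 4 libraries of replicates 1 and 2, where Trim28 goes with the label. The Trim28 log2 fold change, deficient minus sufficient, was -0.90 over the 6 libraries and -3.54 over the 4. In the authors' deposited table, which does not name its libraries, it is 3.11 for sufficient over deficient cells. Foxp3 had 5934 to 7546 counts and Cd4 8380 to 10055 counts in all 6 libraries. In the 4 libraries edgeR called Foxp3 (-0.25, adjusted p = 0.00509) and Cd4 (-0.15, adjusted p = 0.0456) lower and the Treg factor gene Ikzf2 higher (0.19, adjusted p = 0.0167). Of the markers of other cells, Ms4a1 and Pax5 of B cells, Ncr1 of natural killer cells, Itgax and Flt3 of dendritic cells, Csf1r of myeloid cells, Pdgfrb of stromal cells and all 4 erythroid genes had at most 3 counts in every library. Of the B cell genes, 3 were called lower, Ighm, Igkc and Cd22. The antibody gene Ighm held 6228 and 6810 counts in sufficient replicates 1 and 2 and 5325 and 5303 in deficient replicates 1 and 2 (-0.27). The falls of the other 2 were larger. Igkc had 14 and 41 against 5 and 4 counts (-2.55), and Cd22 96 and 128 against 58 and 39 (-1.18). The 4 myeloid genes held 3482 and 3443 against 2639 and 2770 counts, nearly all of it Ctss (3465 and 3426 against 2607 and 2750, called lower), while Itgam had 12 and 14 against 27 and 18. The 4 dendritic genes held 389 and 388 against 301 and 302, most of it Cd74, which was called lower. The 3 natural killer genes held 71 and 47 against 120 and 114, of which Klrb1c, called higher, had 28 and 26 against 109 and 96 and Eomes, not called, 43 and 21 against 11 and 18. No marker gene of CD8 T cells, plasma cells or stromal cells was called, but not all were near 0. Cd8b1 had 102 to 148 counts per library, Xbp1 919 to 1102 and Pecam1 2045 to 2503. Pecam1 was at -0.16 in the 4 libraries (edgeR adjusted p = 0.055). The part of these markers in the results below was not tested. In such bulk samples, fewer cells of a type and less RNA per cell cannot be told apart.

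In the 4 libraries where Trim28 goes with the label, 12 of the 37 replication genes were lower in deficient cells, 1 was higher and 24 did not pass. The genes that fell include the clamp gene Pcna, the helicase genes Mcm2, Mcm3 and Mcm5, the loader gene Cdc6, the ligase gene Lig1 and both ribonucleotide reductase genes Rrm1 and Rrm2. The single gene that rose was Rpa1, a subunit of the protein that coats single-stranded DNA. Calls are from edgeR's quasi-likelihood test with Benjamini-Hochberg adjustment over all genes at 0.05. Over all 12183 genes tested, 7.39% were called lower and 9.96% higher, which is the background for the 12 and the 1 of 37. Scaled by upper-quartile factors instead of TMM, 1248 of all genes were called lower and 1046 higher, and 15 of the replication genes lower and none higher. DESeq2's Wald test called 7 of the 37, all among the 12, beside 930 of the 12693 genes it tested. The fit without a filter on low counts called 21 of the 37, beside 2607 of 17899 genes. The median log2 fold change was -0.26 over the 37 genes and -0.0021 over all genes, and single values ran from -0.83 for Cdc6 to 0.24 for Chaf1b. The changes are modest in size: the largest called fall, that of Cdc6, was to 43.8% below the sufficient level, and the smallest, that of Rfc1, to 13.5% below.

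With all 6 libraries as labelled, none of the 37 genes passed the edgeR test, none had an unadjusted p under 0.05, and 0.0165% of the 12158 genes tested were called in either direction. DESeq2 called none there either. The median over the 37 genes was -0.11 and 30 of 37 values were negative. When only the library labelled sufficient 3 was left out, 1 replication gene passed, Pcna, and leaving out only the library labelled deficient 3 gave 0.

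**Figure D1:**
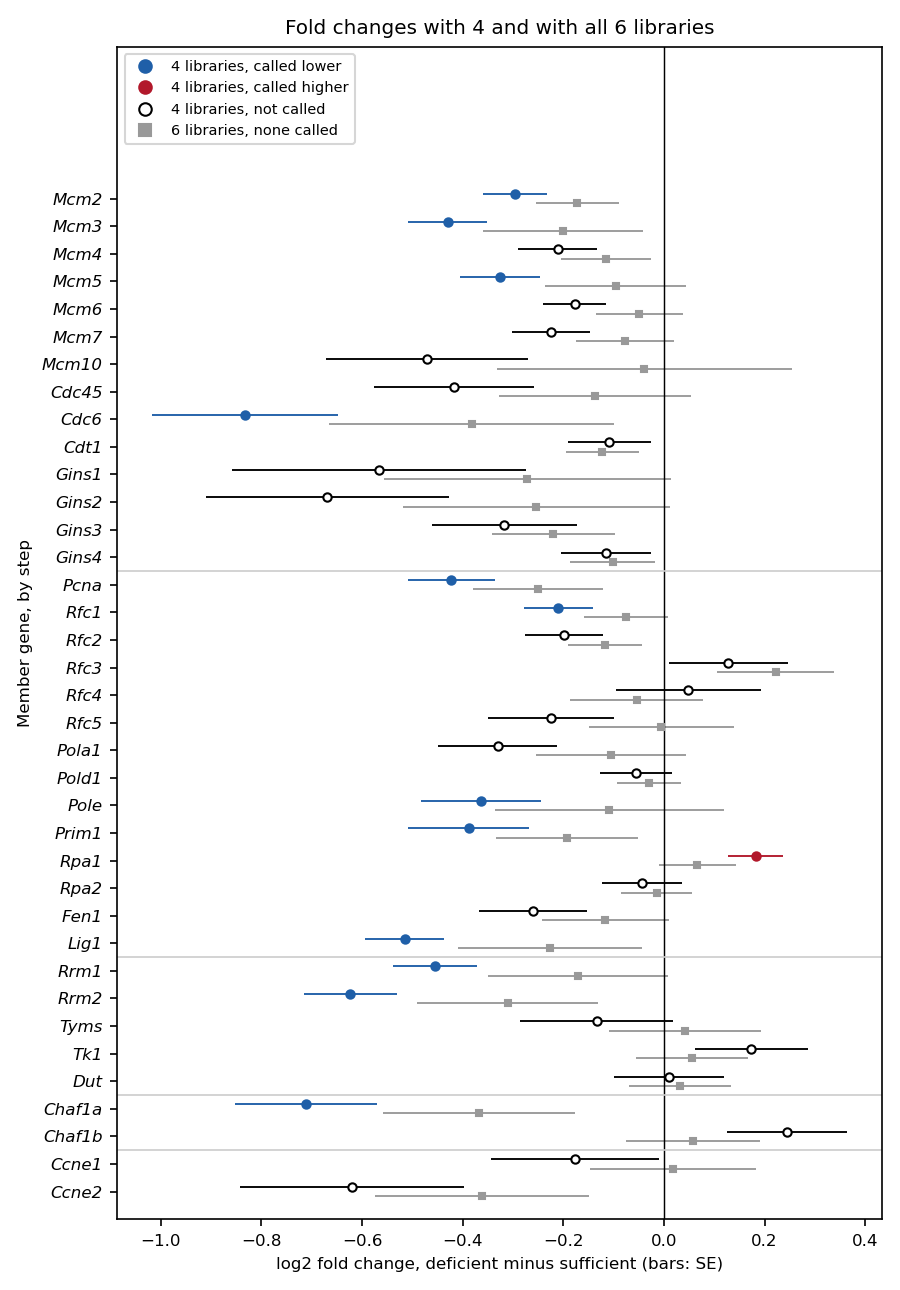
Log2 fold change of each of the 37 genes (horizontal axis, deficient minus sufficient, bars SE), grouped by step, in the 4 libraries where Trim28 goes with the label (circles, filled where called) and in all 6 as labelled (grey squares). In the 4 libraries 12 genes are called lower and Rpa1 higher, with values from -0.83 to 0.24, and in the 6 libraries none is called.

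Compared per kilobase of exon, the levels of the genes spanned more than an order of magnitude on the deposited counts. On that scale the ring genes Mcm6 and Mcm4 had the highest values, with means over 6 libraries of 40.1 and 36.6 CPM per kilobase, followed by Rpa1 at 35.9, and the ranges of these 3 over libraries overlapped. Next came Mcm3 at 23.7, Mcm5 at 23.3, the GINS gene Gins4 at 23.0 and Pcna at 20.8 CPM per kilobase, again with overlapping ranges. The lowest was Mcm10, a scaffold that bridges helicase and primase, at 0.991 CPM per kilobase (0.593 to 1.42), below Gins2 at 1.36 and Chaf1a at 1.53, with ranges that overlap. Members of one complex differed in level: the 4 GINS genes, whose proteins assemble one of each, lay at 2.41 (Gins1), 1.36 (Gins2), 4.36 (Gins3) and 23.0 (Gins4) CPM per kilobase. Within the Mcm2 to Mcm7 ring the values on the deposited counts ran from 12.3 for Mcm7 to 40.1 for Mcm6. The places of Pcna and Mcm7 are uncertain: the mean level in the authors' deposited table is 3.39 times the mean count for Pcna and 1.92 times for Mcm7. Divided by the same exon lengths, the levels of the authors' deposited table put Pcna at rank 1 of 37 in place of 7 and Mcm7 at rank 5 in place of 15, above Mcm2, Mcm3 and Mcm5, and put Ccne2 below Mcm10. Exon length here is the union of all annotated exons, so a gene with long rare exons is placed too low.

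**Figure D2:**
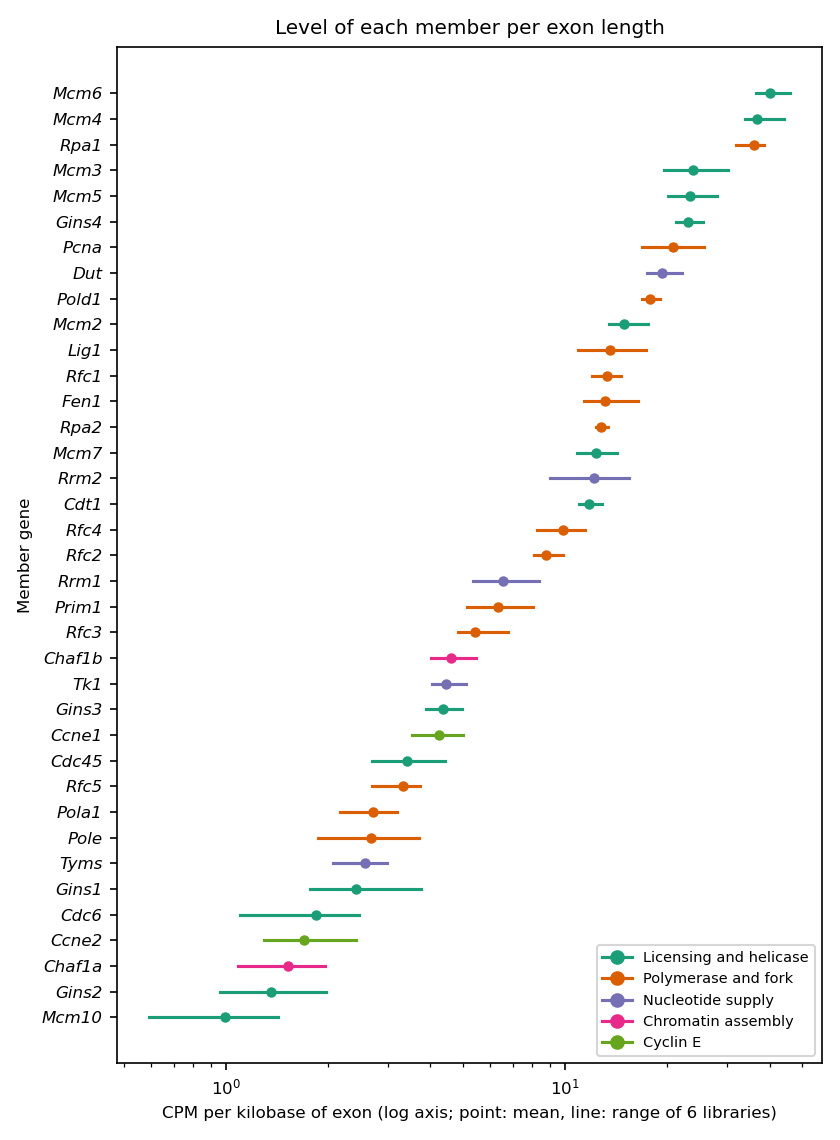
Mean level of each gene in CPM per kilobase of exon (horizontal, log axis) with the range over the 6 libraries as a line, coloured by step and sorted by mean. On these deposited counts Mcm6 is at 40.1 and Mcm10 at 0.991, and the places of Pcna and Mcm7 are uncertain, since the authors' deposited table holds mean levels 3.39 and 1.92 times their mean counts.

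All 14 licensing and helicase genes had negative log2 fold changes in the 4 libraries, and 4 of them fell: Mcm3, Mcm2, Cdc6 and Mcm5. Their median was -0.32. In what follows values are given in the order of the libraries labelled sufficient 1, 2 and 3 and then deficient 1, 2 and 3. Mcm3, a ring subunit (ENSMUSG00000041859, chromosome 1, 20802968 to 20820312, mm10), stood at 97.8, 113 and 74.1 CPM and at 73.4, 82.8 and 92.5 CPM. The labelled groups overlap, because the library labelled sufficient 3 lies with deficient replicates 1 and 2 and the one labelled deficient 3 lies near sufficient replicate 1. In the 4 libraries Mcm3 had a log2 fold change of -0.43 ± 0.08 (SE, edgeR adjusted p = 0.00161), and in all 6 of -0.20 ± 0.16 (adjusted p = 0.741).

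Mcm2, another ring subunit (ENSMUSG00000002870, chromosome 6, 88883474 to 88898780), held 109.7, 122 and 98.1 CPM and 93.5, 94.0 and 105 CPM. Again the library labelled sufficient 3 was below, and the one labelled deficient 3 above, the other libraries of its label. The log2 fold change was -0.30 ± 0.06 in the 4 libraries (edgeR adjusted p = 0.00488) and -0.17 ± 0.08 in the 6. Cdc6, which brings the ring to the origin (ENSMUSG00000017499, chromosome 11, 98907801 to 98923940), had 12.9, 12.7 and 7.09 CPM and 5.75, 8.54 and 10.7 CPM. It rests on few counts, 58 in deficient replicate 1 and 85 in deficient replicate 2, and these differ from each other more than the sufficient replicates 1 and 2 do. Its log2 fold change in the 4 libraries was -0.83 ± 0.19 (edgeR adjusted p = 0.00614), which became -0.58 without deficient replicate 1 (adjusted p = 0.0569) and was not called by DESeq2 (adjusted p = 0.0545). Mcm5 (ENSMUSG00000005410, chromosome 8, 75109569 to 75128439), also of the ring, stood at 92.2, 112 and 84.5 CPM and at 80.2, 82.0 and 108 CPM. Sufficient replicate 2 and the library labelled deficient 3 were its highest libraries. Its log2 fold change was -0.33 ± 0.08 (edgeR adjusted p = 0.0111), and it lost its call without sufficient replicate 2 (-0.19, adjusted p = 0.125) and by DESeq2 (adjusted p = 0.0514).

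The remaining ring genes did not pass in the 4 libraries, with log2 fold changes of -0.21 for Mcm4 (adjusted p = 0.0873), -0.18 for Mcm6 (0.0677) and -0.22 for Mcm7 (0.0601) by edgeR. Of the other helicase factors Cdc45 was at -0.42 (adjusted p = 0.0886) and Mcm10 at -0.47 (0.124) with SEs of 0.16 and 0.20. The GINS genes were at -0.57 (Gins1), -0.67 (Gins2), -0.32 (Gins3) and -0.12 (Gins4), and none passed. Gins1 and Gins2 had 27 to 82 counts per library, and 67.3% of the exon bases of Gins2 overlap exons of Gse1 on the other strand, so with the counting's strand setting unknown the reads of these genes cannot be told apart. Gins4 had the largest adjusted p of the step (0.421), at 32.1, 34.4 and 29.7 CPM and 30.9, 30.2 and 28.7 CPM. Cdt1, the partner of Cdc6 in loading, was the one gene of the 37 whose 3 libraries labelled deficient all lay below the 3 labelled sufficient. Its levels were 40.3, 37.5 and 37.8 CPM and 35.9, 36.0 and 34.5 CPM, a log2 fold change over 6 libraries of -0.12 ± 0.07 (edgeR adjusted p = 0.665), not called.

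Promoter windows are shown for 3 genes that fell, Mcm3, Mcm5 and Rrm2, and for Rpa1, which rose, because E2F letters are a known mark of replication promoters and these 4 differ in carrying them. The windows are RefSeq sequence of GRCm38.p6 from 250 bases before to 50 bases after the annotated start, 5′ to 3′ on the gene's strand. They lie at chr1:20820263-20820562 on the minus strand for Mcm3, chr8:75109259-75109558 on the plus strand for Mcm5, chr12:24708004-24708303 on the plus strand for Rrm2 and chr11:75348334-75348633 on the minus strand for Rpa1. Capitals mark the E2F letters (TTTCCCGC, TTTCGCGC, TTTGCCGC or TTTGGCGC) and the letters CCAAT, each on either strand.
Mcm3: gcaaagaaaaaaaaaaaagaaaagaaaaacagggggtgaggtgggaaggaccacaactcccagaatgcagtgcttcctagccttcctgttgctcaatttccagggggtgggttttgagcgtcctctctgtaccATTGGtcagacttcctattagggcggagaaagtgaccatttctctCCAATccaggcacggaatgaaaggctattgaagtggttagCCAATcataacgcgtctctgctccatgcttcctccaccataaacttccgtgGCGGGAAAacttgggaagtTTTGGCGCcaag
Mcm5: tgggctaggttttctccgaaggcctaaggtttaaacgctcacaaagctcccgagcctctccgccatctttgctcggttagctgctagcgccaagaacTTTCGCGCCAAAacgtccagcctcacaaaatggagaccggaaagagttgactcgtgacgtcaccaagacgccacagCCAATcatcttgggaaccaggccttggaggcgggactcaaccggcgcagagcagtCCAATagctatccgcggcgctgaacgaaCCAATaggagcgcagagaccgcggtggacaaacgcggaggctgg
Rrm2: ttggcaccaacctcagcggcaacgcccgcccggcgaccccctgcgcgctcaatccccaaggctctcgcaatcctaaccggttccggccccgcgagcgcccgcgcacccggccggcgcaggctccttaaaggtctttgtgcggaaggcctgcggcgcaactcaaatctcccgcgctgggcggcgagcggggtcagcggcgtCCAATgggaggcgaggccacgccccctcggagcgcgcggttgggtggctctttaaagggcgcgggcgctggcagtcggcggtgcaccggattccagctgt
Rpa1: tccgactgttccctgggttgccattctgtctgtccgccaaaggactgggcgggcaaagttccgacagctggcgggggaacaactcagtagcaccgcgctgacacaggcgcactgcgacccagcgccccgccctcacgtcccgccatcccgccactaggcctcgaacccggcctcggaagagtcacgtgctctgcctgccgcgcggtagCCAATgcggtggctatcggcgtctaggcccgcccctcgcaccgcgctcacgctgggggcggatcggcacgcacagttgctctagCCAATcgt
Mcm3 has 2 E2F matches, which begin at positions 20 and 39 counted from the start site as 1, and 3 CCAAT matches. Mcm5 has 2 E2F matches that overlap each other, beginning at -153 and -149 from the start site, and 3 CCAAT matches. Rrm2 has 1 CCAAT match and Rpa1 has 2, and neither has the E2F letters in this window.

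Windows were held for 30 of the 37 genes, 34 windows in all. The E2F letters occurred in 11 of 34 windows (32.4%), against 2.26% of the 32851 windows of all genes, and CCAAT in 55.9% against 37.4%. Another motif, the CHR letters TTTGAA and TTCGAA known from promoters of mitotic genes, occurred in 17.6% of the windows of replication genes and 19.2% of all windows. In Mcm7 1 of the other motifs overlaps an E2F match. The windows of replication genes also had a higher median GC content, 60.6% against 52.7%. Among the genes with a window, the E2F letters occurred in 4 of the 11 called lower (Mcm3, Mcm5, Cdc6 and Lig1) and in 7 of the 18 not called. CCAAT occurred in 9 of those 11 and in 8 of those 18. A match of letters is a description of the sequence and not evidence of a bound factor.

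Of the 14 polymerase and fork genes 5 fell in the 4 libraries, 1 rose and 8 did not pass, with a median log2 fold change of -0.22. Those that fell were Lig1, Pcna, Prim1, Rfc1 and Pole, and the one that rose was Rpa1. Lig1, the ligase that joins Okazaki fragments (ENSMUSG00000056394, chromosome 7, 13277283 to 13311433), stood at 65.9, 73.8 and 46.6 CPM and at 47.3, 50.03 and 62.0 CPM. The library labelled sufficient 3 was the lowest of all 6 and the one labelled deficient 3 came near sufficient replicate 1. Its log2 fold change in the 4 libraries was -0.52 ± 0.08 (SE, edgeR adjusted p = 0.000358), with a call under all 10 alternative settings. Lig1 begins 246248 bases from the end of Trim28 on the same chromosome, and any part of that position in its change was not tested.

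Pcna, the sliding clamp (ENSMUSG00000027342, chromosome 2, 132249162 to 132253314), held 56.9, 61.7 and 43.7 CPM and 47.6, 40.5 and 48.5 CPM. Only the library labelled sufficient 3 crosses the groups here, since the one labelled deficient 3 stayed on the deficient side of the midpoint between the group means. The log2 fold change was -0.42 ± 0.09 in the 4 libraries (edgeR adjusted p = 0.00362), called under all 10 alternatives. In all 6 libraries it was -0.25 ± 0.13 (adjusted p = 0.654). Prim1, the catalytic subunit of primase (ENSMUSG00000025395), had 25.5, 31.1 and 21.6 CPM and 19.8, 23.3 and 25.4 CPM, which is -0.39 ± 0.12 on the log2 scale (edgeR adjusted p = 0.0389). It was not called without sufficient replicate 2 (-0.25, adjusted p = 0.260), without deficient replicate 1 (-0.28, 0.243), with limma-voom or with DESeq2. Rfc1, the large subunit of the clamp loader, and Pole, the catalytic subunit of the leading-strand polymerase, passed narrowly at -0.21 ± 0.07 and -0.36 ± 0.12 (edgeR adjusted p = 0.0469 and 0.0483). Pole was at -0.14 without sufficient replicate 2 (adjusted p = 0.464) and at -0.36 without deficient replicate 1 (0.0540). Rfc1 lost its call without sufficient replicate 2 (-0.17), deficient replicate 1 (-0.24) or deficient replicate 2 (-0.18).

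Rpa1, the large subunit of the complex that coats single-stranded DNA (ENSMUSG00000000751, chromosome 11, 75298166 to 75348324), went the other way. It stood at 178, 194 and 215 CPM and at 208, 213 and 195 CPM, so the library labelled sufficient 3 was the highest. The log2 fold change was 0.18 ± 0.05 in the 4 libraries (edgeR adjusted p = 0.0326). It was not called with upper-quartile factors (0.15), by DESeq2 (adjusted p = 0.201), or without sufficient replicate 1 (0.13), deficient replicate 1 (0.20) or deficient replicate 2 (0.17). Its partner Rpa2 was at -0.04 ± 0.08 (adjusted p = 0.766), with levels of 36.8 to 40.1 CPM over the 6 libraries.

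Among the polymerase and fork genes that did not pass, Pola1, of the priming polymerase, was at -0.33 (edgeR adjusted p = 0.0686) and Fen1, the flap nuclease that acts before Lig1, at -0.26 (0.113). Pold1, the catalytic subunit of the lagging-strand polymerase, was at -0.06 ± 0.07 (adjusted p = 0.65), with levels of 81.7 to 92.4 CPM. The 4 smaller subunits of the clamp loader were at -0.20 (Rfc2), 0.13 (Rfc3), 0.05 (Rfc4) and -0.23 (Rfc5). Rfc4 had the largest adjusted p of the step (0.859), at 12.7, 15.9 and 17.6 CPM and 15.0, 14.5 and 15.1 CPM. Exons of the more abundant Eif4a2 on the other strand overlap 12.65% of its exon bases, so its counts are uncertain where the counting ignored strand. Rfc3 was the one gene of the 37 whose libraries labelled deficient all lay above those labelled sufficient, with 18.0, 17.4 and 18.5 CPM and 18.6, 20.0 and 24.5 CPM (log2 fold change over 6 libraries 0.22 ± 0.12, edgeR adjusted p = 0.654). Subunits that work in one complex thus did not all pass or move by the same amount, and no difference between subunits was tested.

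Both genes of ribonucleotide reductase fell in the 4 libraries, and the other 3 nucleotide genes did not pass. Rrm2, the regulated subunit (ENSMUSG00000020649, chromosome 12, 24708241 to 24714146), had the smallest adjusted p of the 37 genes. Its levels were 40.2, 42.7 and 28.9 CPM and 24.998, 28.6 and 36.7 CPM. Again the library labelled sufficient 3 lay near deficient replicate 2, and the one labelled deficient 3 lay nearer to sufficient replicate 1. In the 4 libraries the log2 fold change was -0.62 with an SE of 0.09 (edgeR adjusted p = 0.00029), a fall to 35.1% below the sufficient level, and over all 6 libraries -0.31 ± 0.18 (adjusted p = 0.665). Rrm1, the large subunit (ENSMUSG00000030978, chromosome 7, 102441695 to 102469771), stood at 77.6, 91.8 and 59.996 CPM and at 58.9, 64.2 and 81.0 CPM, with a value of -0.46 ± 0.08 for the log2 fold change (edgeR adjusted p = 0.00155). Both were called under all 10 alternatives.

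Tk1, the thymidine kinase of the salvage route, had 21.0, 23.2 and 23.7 CPM and 23.1, 26.5 and 21.0 CPM, and its groups overlap. Its log2 fold change in the 4 libraries was 0.17 ± 0.11 (edgeR adjusted p = 0.326). Dut, which removes dUTP, was the gene of this step with the largest adjusted p, at 42.0, 53.0 and 43.0 CPM and 43.6, 51.6 and 46.1 CPM (0.01 ± 0.11, adjusted p = 0.969). Thymidylate synthase, Tyms, was at -0.13 ± 0.15 (adjusted p = 0.602). The median of the 5 genes was -0.13.

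The 2 chromatin assembly genes encode subunits of one complex, CAF-1, which places histones on new DNA, and their values had opposite signs. Chaf1a (ENSMUSG00000002835, chromosome 17, 56040439 to 56072289) stood at 16.5, 17.3 and 11.8 CPM and at 9.62, 10.9 and 14.8 CPM. It fell in the 4 libraries, at -0.71 ± 0.14 for the log2 fold change (edgeR adjusted p = 0.00268), and was called under all 10 alternatives. Exons of Ubxn6 on the other strand overlap 52.5% of its exon bases, so its counts are uncertain where the counting ignored strand. Chaf1b had 20.7, 19.2 and 23.3 CPM and 25.5, 21.5 and 18.8 CPM and did not pass (0.24 ± 0.12, adjusted p = 0.185). The difference between the 2 subunits was not tested.

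Neither cyclin E gene passed. Ccne1 had 10.9, 13.3 and 9.42 CPM and 9.42, 11.9 and 12.7 CPM, or -0.18 ± 0.17 on the log2 scale in the 4 libraries (edgeR adjusted p = 0.517). Ccne2 had 6.04, 8.45 and 5.53 CPM and 4.86, 4.52 and 6.18 CPM, a log2 fold change of -0.62 ± 0.22 (adjusted p = 0.0709). Cyclin E activates Cdk2 at entry into S phase. The estimate for Ccne2 is as large as that for Rrm2 but rests on 45 to 86 counts per library, and its SE is more than double. Exons of Ints8 on the other strand overlap 17.4% of the exon bases of Ccne2, so its counts are uncertain where the counting ignored strand.

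Read over all 6 libraries, the order of the replication genes went with Trim28 rather than with the label. Trim28 is low in the libraries labelled sufficient 3, deficient 1 and deficient 2. In 24 of the 37 genes all 3 of these lay below all 3 others, where 14.5% of all genes tested did so, and in 2 (Rpa1 and Chaf1b) all 3 lay above, where 11.9% of all genes did. Ordered by label, 1 gene had all deficient libraries below, against a background of 6.05%, and 1 had them all above, against 6.73%. By step, the 3 libraries with low Trim28 were all below in 11 of 14 licensing genes, 9 of 14 polymerase genes, 2 of 5 nucleotide genes, 1 of 2 chromatin assembly genes and 1 of 2 cyclin E genes. Of these 6 libraries 4 are those of the smaller fit, and Trim28 level is a measured value and not a labelled group, so no mean or test is given for this order.

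The 2 libraries that the smaller fit left out can be placed against it. Among the 12 genes called lower, the library labelled sufficient 3 was on the deficient side of the midpoint between group means in 12, and the library labelled deficient 3 was on the sufficient side in 10, all but Pcna and Pole. Over the 900 genes called lower among all tested, the shares were 89.3% and 49.4%. For these replication genes the library labelled deficient 3 thus lay on the sufficient side in 83.3% of cases, a larger share than over the 900 genes, with no test of that difference. Rpa1 had both libraries on the side opposite to their label. Over the 1214 genes called higher among all tested, the library labelled sufficient 3 was on the deficient side in 92.9%. The library labelled deficient 3 was on the sufficient side in 41.4% of them.

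**Figure D3:**
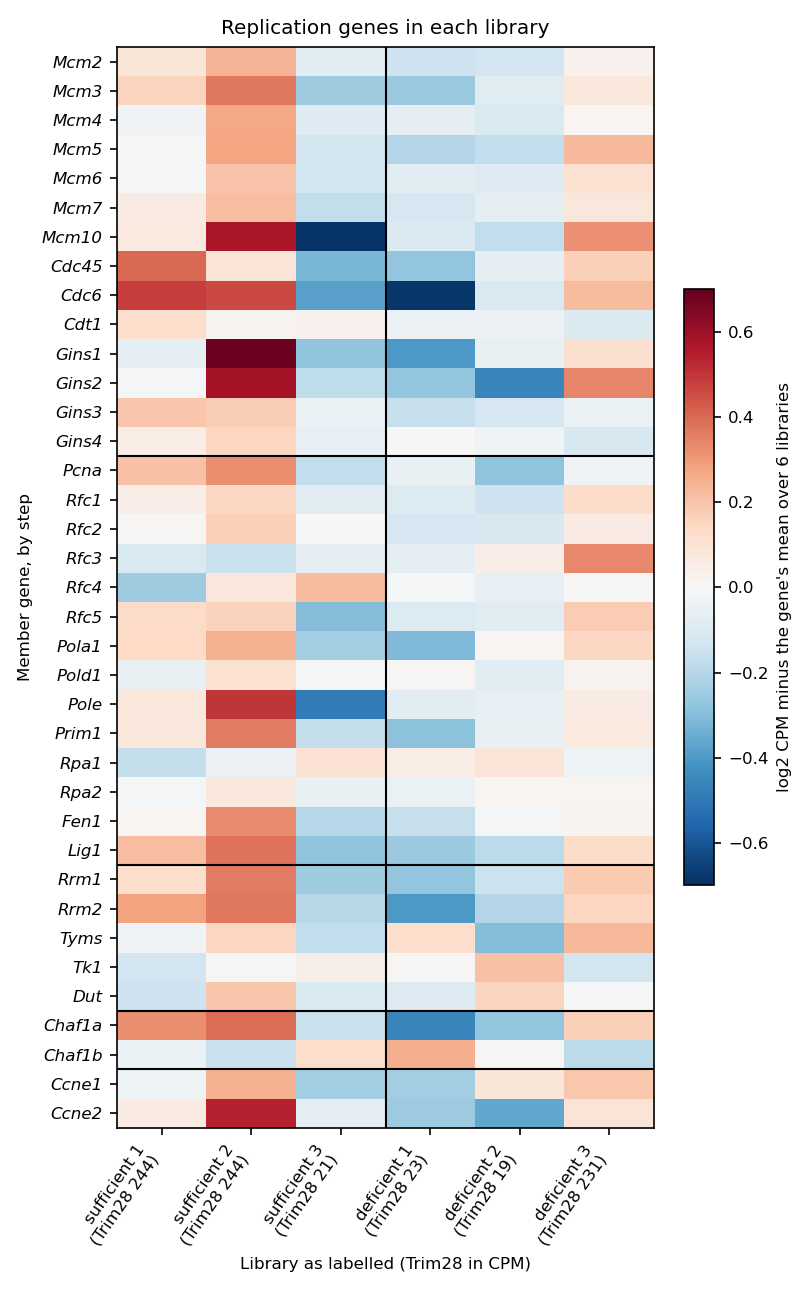
Log2 CPM of each of the 37 genes minus its mean over the 6 libraries (colour, red above and blue below the mean, scale ending at the colours shown), with libraries as columns in label order, the vertical line between the labelled groups, and steps separated by horizontal lines. The columns labelled sufficient 3, deficient 1 and deficient 2, with Trim28 at 21.2, 23.0 and 18.6 CPM, are mostly blue, and in 24 genes all 3 lie below the others.

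Summed over the 37 genes, the libraries held 1772, 2006 and 1622 CPM under the sufficient label and 1616, 1653 and 1817 CPM under the deficient one. The sum in deficient replicates 1 and 2 was 86.5% of that in sufficient replicates 1 and 2. The licensing sums were 800.4, 917 and 706 CPM and 705, 718 and 814 CPM, in which deficient replicates 1 and 2 reached 82.9% of sufficient replicates 1 and 2. For the polymerase genes the sums were 721, 803 and 696 CPM and 694, 703 and 747 CPM (91.6%), and for the nucleotide genes 196, 228 and 169 CPM and 168, 184 and 203 CPM (82.8%). In each of these 3 steps the sum in the library labelled sufficient 3 lay within 3 CPM of that in deficient replicate 1, and the one labelled deficient 3 exceeded deficient replicates 1 and 2. The sums weigh abundant genes most, so the ring genes Mcm2 to Mcm7 alone make up 670, 782, 598, 598, 608 and 696 CPM of the licensing sums in the same order. The fall in the nucleotide sum lies in the reductase genes. Between sufficient and deficient replicates 1 and 2, mean CPM was 84.7 and 61.6 for Rrm1 and 41.5 and 26.8 for Rrm2. For Dut it was 47.5 and 47.6, for Tk1 22.1 and 24.8 and for Tyms 16.2 and 14.7.

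**Figure D4:**
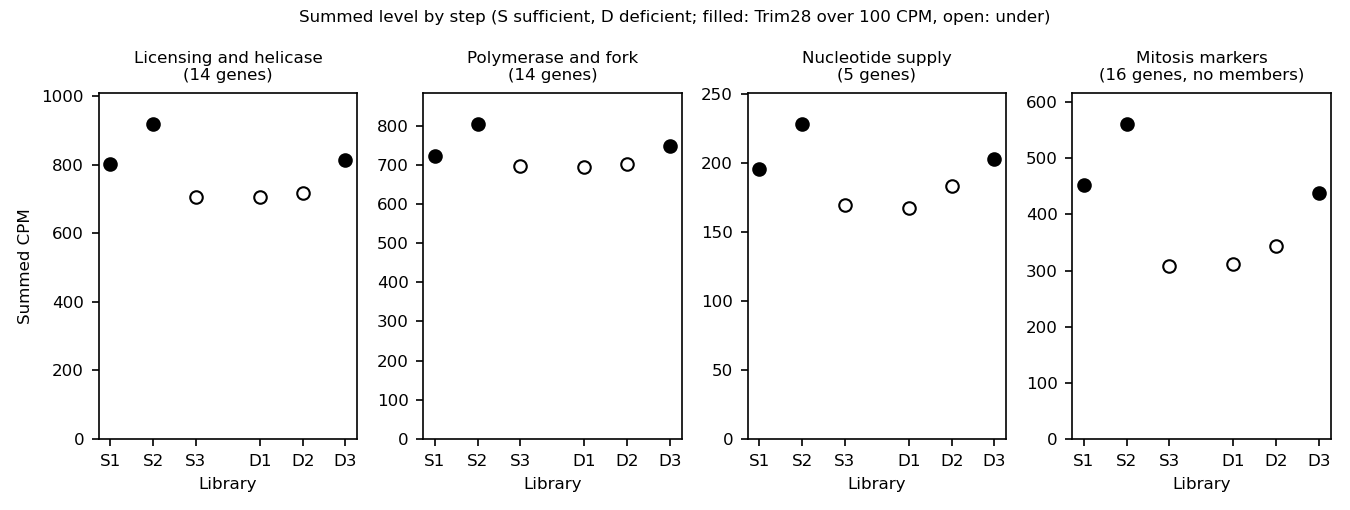
Summed CPM (vertical axis, from 0) of the licensing, polymerase and nucleotide genes and of 16 mitosis marker genes in each library, labelled sufficient S1 to S3 and deficient D1 to D3, filled where Trim28 is over 100 CPM and open where it is under. In each of the 4 panels the 3 open points are the lowest, and S2 is the highest.

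Replicates of one label also differed along these genes. Sufficient replicate 2 was above sufficient replicate 1 in 31 of the 37 genes (83.8%), where it was above in 53.3% of all genes tested, and the median ratio of the 2 was 1.12. Deficient replicate 2 was above deficient replicate 1 in 25 of 37 (67.6%), against 52.8% of all genes. With sufficient replicate 1 left out edgeR called more replication genes than in the 4 libraries, and with sufficient replicate 2 left out fewer. Over all genes both fits called fewer than the fit of the 4 libraries. Each keeps 1 sufficient library, so its calls rest on the spread of the deficient pair. The 16 mitosis markers, which are transcribed in dividing cells, moved with the same libraries: their sum was 452, 560.1 and 307 CPM and 311, 344 and 438 CPM, 64.7% in deficient replicates 1 and 2 of that in sufficient replicates 1 and 2. Of these markers 9 fell in the 4 libraries, none rose and 7 did not pass, with a median log2 fold change of -0.53. Those with the smallest adjusted p were Mki67 (-0.77), Aurkb (-1.05), Tpx2 (-0.75) and Birc5 (-0.82). The share of dividing cells was not measured, and its part in the replication gene values was not tested.

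Other genes of the same steps, taken from lists that hold no member of the 37, were counted in the 4 libraries against the same background of 7.39% of all genes called lower and 9.96% higher. Of 15 more licensing genes 5 fell and 1 rose, with a median of -0.16. Ticrr, a firing factor, had a log2 fold change of -0.84, its partner Topbp1 -0.24 and the kinase activator Dbf4 -0.34, while Orc4 of the origin recognition complex rose (0.31). Of 22 more fork genes 4 fell and 1 rose (median -0.12), among them the checkpoint adaptor Clspn (-0.64), the polymerase subunits Pold3 (-0.37) and Pole4 (0.24) and the fork protection factor Timeless (-0.39).

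Of 25 more nucleotide genes tested none fell by edgeR and 5 rose, 6 had an unadjusted p under 0.05 in either direction, and the median was 0.03. These were Dck, the deoxycytidine kinase of the salvage route (0.37, edgeR adjusted p = 0.00098), Cmpk1 (0.41), Rrm2b, the small reductase subunit known from DNA repair and quiescent cells (0.44), the folate enzyme gene Mthfd2 (0.37), and Impdh2 of guanine nucleotide synthesis (0.61). Mthfd2 and Impdh2 serve nucleotide synthesis in general, and Impdh2 was named beyond the 4 of the naming rule after its values were seen. The counts of Impdh2, a mean of 112 per library, are uncertain: its mean level in the authors' deposited table is 14.6 times that, with a log2 fold change of 0.07, sufficient over deficient, and an adjusted p of 0.676. Of these genes the authors' deposited table calls Mthfd2 higher in deficient cells and does not call Dck, Cmpk1 or Rrm2b. Dck and Cmpk1 were highest in the library labelled deficient 3 (112 and 57.8 CPM), although its Trim28 is high. Rrm2b stood at 27.0, 29.7 and 34.7 CPM and at 36.4, 40.2 and 34.6 CPM, the direction opposite to Rrm2 in the same libraries. The difference between the paralogs was not tested. Of 21 tested regulators of the step from G1 to S phase 6 fell and 2 rose (median -0.22). Those with the smallest adjusted p were E2f8 (-1.05), Cdk2 (-0.36) and E2f4 (-0.25), lower, and the inhibitor gene Cdkn1b, which encodes p27, higher (0.37, edgeR adjusted p = 0.000146). The other called genes were E2f1 (-0.73), Ccna2 (-0.52) and the inhibitor gene Cdkn2c (-0.67), all lower, and the kinase gene Cdk6 (0.30), higher. These were named beyond the naming rule after their values were seen. Cdkn1b was at 336, 323 and 429.9 CPM and at 422, 426 and 430.02 CPM, so the library labelled deficient 3 was among the high ones although its Trim28 is high. The authors' deposited table calls E2f8, Cdk2, Ccna2 and Cdkn2c lower in deficient cells but does not call E2f1, E2f4, Cdkn1b or Cdk6. Its mean levels are 0.661 times the mean count for Cdkn1b and 0.748 times for Cdk6, so the counts of these 2 genes are uncertain. With all 6 libraries as labelled, no gene of these 5 lists was called by edgeR, and 8 of the 99 tested had an unadjusted p under 0.05.

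**Figure D5:**
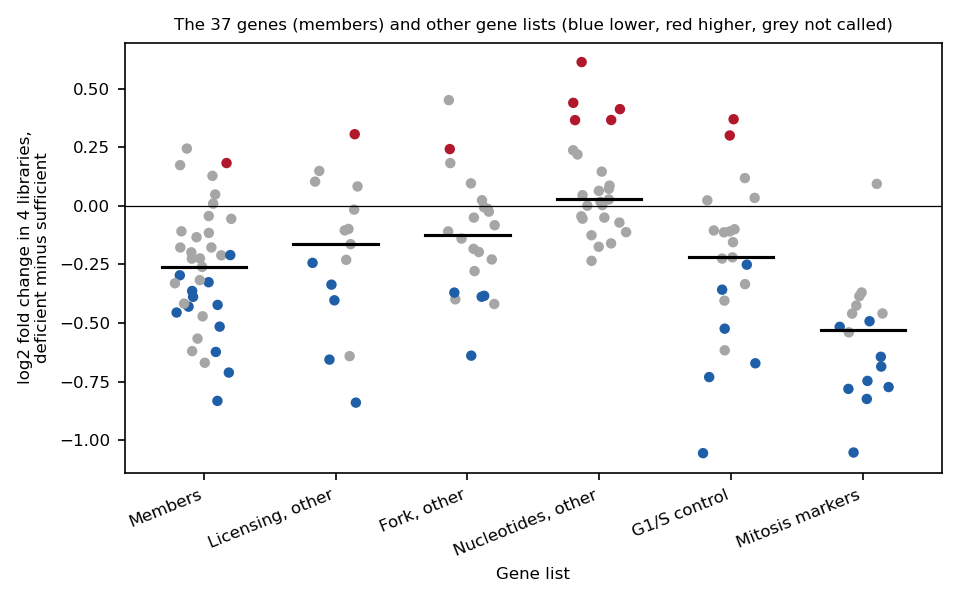
Log2 fold change in the 4 libraries (vertical axis, deficient minus sufficient) of the 37 genes and of 5 further gene lists, one point a gene, blue called lower, red called higher, grey not called, with the median as a bar. Medians run from -0.53 for mitosis markers to 0.03 for the other nucleotide genes, where 5 genes are called higher and none lower.

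The authors' deposited table, whose samples are not stated, holds all 37 genes and calls 12 lower in deficient cells and 0 higher at an adjusted p under 0.05. Over all genes with an adjusted p in the authors' deposited table, 3.02% are called lower and 3.85% higher. It shares 9 genes with the 12 called lower in the 4 libraries, Mcm2, Mcm3, Mcm5, Cdc6, Pcna, Lig1, Rrm1, Rrm2 and Chaf1a, which is 9 of 12 of either list. The authors' deposited table also calls Mcm6, Mcm7 and Mcm10, and does not call Rfc1, Pole, Prim1 or Rpa1. Its log2 fold changes, positive where sufficient cells are higher, are 0.43 for Rrm2, 0.42 for Lig1 and 0.34 for Mcm3 in the authors' deposited table. The mean levels in the authors' deposited table differ from the mean deposited count for some genes, by a ratio of 3.39 for Pcna, 1.92 for Mcm7 and 0.568 for Ccne2, and lie within 0.9 to 1.1 of it for 25 genes. That table therefore rests on other counts than the count table for these genes. Its grouping of libraries may differ from the labels too. Ms4a1, whose only deposited count lies in the library labelled deficient 3, is at 0.0038 in it. Flt3, whose only deposited count lies in the library labelled sufficient 3, is at -0.0042. Grouped by label, both signs would be reversed, though each rests on 1 count. The shared calls may thus compare fits over different libraries and groups. Both tables rest on RNA of the same study, so the shared calls are not independent evidence.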

How the data were processed

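RNA was measured in 6 libraries of sorted splenic Treg, prepared with a TruSeq kit per the labels. The submitters' processing notes name the mm10 build, HTSeq 0.7.2, TopHat2 2.1.1 and DESeq2, without saying what each did, and the strand setting and annotation release are not given in the sources. The authors deposited raw counts per Ensembl gene. A second table they deposited gives mean levels (a signal), log2 fold changes and their errors, test scores, p-values and q-values, per the file headers. Symbols were found for 32919 identifiers, and the other 5072 rows took 0.603% of counts. Positions are from GENCODE on GRCm38.

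edgeR 4.0.16 (R 4.3.3; quasi-likelihood test, robust, TMM, filterByExpr, Benjamini-Hochberg threshold 0.05) was run over all genes, on all 6 libraries as labelled and on replicates 1 and 2 of each group. Standard errors come from the fold change and F, and positive values mean higher in deficient cells. Alternatives were RLE and upper-quartile factors, no filter, DESeq2 1.42.0, limma-voom 3.58.1, a replicate block and each library left out. The fits were tested on simulated data. All library pairs differed by more than sampling noise (smallest chi-square per degree of freedom 2.43, between the libraries labelled sufficient 3 and deficient 1). On that measure the library labelled deficient 3 was not close to any other. It stood at 7.22 and 7.64 from sufficient replicates 1 and 2 and at 8.485 to 8.651 from the libraries with low Trim28. Sufficient replicates 1 and 2 stood at 2.81 from each other. Python 3.11.15 was used with pandas 2.3.3, numpy 2.4.6, scipy 1.17.1 and, for plots, matplotlib 3.10.9. The genes, lists and comparisons were chosen with earlier results of these data known. All 37 genes are named, with every library's value for those with the smallest and the largest adjusted p of each step. Up to 4 called genes of each further list are named, and all called genes of the nucleotide and G1 to S lists. A marker gene of the B cell list is not reported here.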

Additional observations from a re-analysis of the deposited data

How the results depend on the processing

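In the 4 libraries 13 of the 37 genes were called. The count was 12 with DESeq2's size factors, 15 with upper-quartile factors (all lower), 11 with limma-voom and 21 with no filter on low counts. Those fits called 2083, 2294, 1964 and 2607 of all genes in the same order, against 2114 in the main fit. DESeq2's Wald test called 7 of the 37 and 930 genes in all. Without single libraries it was 9 to 20, highest without sufficient replicate 1, where the group left with 1 library borrows the spread of the other group. The 7 genes that DESeq2 called, Mcm2, Mcm3, Pcna, Lig1, Rrm1, Rrm2 and Chaf1a, were called under all 10 alternatives. With the replicate block 14 were called beside 2359 of all genes, 12 of the 14 shared with the main fit, and Rfc1 lost its call. Whether the numbers pair these samples was not settled. Deviations of same-numbered libraries from their group means correlated at -0.019 in the 4 libraries, which shows no shared deviation there. In the 6 they correlated at -0.365, -0.292 and -0.613, and 0 of 6 libraries correlated best with its own number. These 6-library values cannot decide it. The libraries labelled sufficient 3 and deficient 3 depart from their groups in opposite directions, which pushes such correlations below 0. With all 6 libraries as labelled the count was 0 under every alternative run, except 0 to 1 without single libraries (Pcna, without the library labelled sufficient 3) and 13 without both libraries that Trim28 contradicts. Gins1, Gins2, Mcm10 and Ccne2 had 27 to 111 counts per library, and the part of depth in their calls was not tested.

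Of 370 single-gene values in the 4 libraries, 316 kept direction and side of the threshold, 25 gained a call, 23 lost it and 6 changed sign, none of them called. Those were Dut with upper-quartile factors (-0.022), and, as ranges over single libraries left out, Rfc4 (-0.10 to 0.22), Pold1 (-0.13 to 0.017), Tyms (-0.37 to 0.066) and Dut (-0.15 to 0.18). In the 6 libraries 406 of 444 values stayed, 1 gained a call and 37 changed sign, none of them called. With limma-voom these were Mcm10 (0.040) and Rfc5 (0.0096), and with the replicate block Mcm10 (0.014) and Rfc5 (0.0023). Without single libraries the ranges were, for licensing genes, Mcm5 -0.24 to 0.022, Mcm6 -0.12 to 0.043, Mcm7 -0.17 to 0.014, Mcm10 -0.31 to 0.29, Cdc45 -0.30 to 0.052, Gins1 -0.45 to 0.070 and Gins2 -0.52 to 0.0025. For fork genes they were Rfc4 -0.17 to 0.054, Rfc5 -0.14 to 0.072, Pola1 -0.23 to 0.0077, Pold1 -0.060 to 0.013, Pole -0.33 to 0.15, Rpa2 -0.040 to 0.017 and Fen1 -0.23 to 0.033. For the rest they were Tyms -0.061 to 0.19, Tk1 -0.036 to 0.14, Dut -0.035 to 0.14, Chaf1b -0.070 to 0.16 and Ccne1 -0.091 to 0.15. For these changes the cause was not tested.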
